A study of Mus musculus with 6 samples.

Results

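Complement is a system of blood and tissue proteins that tags cells, synapses and microbes for removal. In the classical pathway, C1q, built from the chains C1qa, C1qb and C1qc, binds a target and leads to cleavage of C4 and C3. Fragments of C3 on the target are bound by complement receptor 3, the integrin of Itgam (CD11b) and Itgb2 (CD18), and the small peptides released from C3 and C5 act through the receptors C3ar1 and C5ar1. In the brain, microglia are the main source of C1q and carry these receptors, whereas C3 and C4 transcripts are also made by astrocytes and other cells. The 9 genes named here were chosen as the components and receptors of this axis by symbol, with no measured value in the rule. Earlier results of these data were known when they were chosen. All 9 were among the 31053 genes listed in the count table.

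Expression was measured by bulk RNA sequencing in 2 libraries labelled as WT and 3 labelled as KIKO, all from mouse cerebellum. KIKO (knock-in knock-out) mice are the disease model of the study, and the WT mice were C57BL/6 littermates. The study describes CD45+/CD11b+ cells isolated by magnetic sorting and, for its untreated comparison of the genotypes, 6-mo-old mice. It also describes microglia cultured from the cerebellum of pups and older male mice fed butyrate. The labels give the tissue and genotype, name no sorting, culture, age, sex or treatment, and so do not say which of these the libraries came from. All 5 libraries held counts of Xist (840 to 2856) and 0 counts of Ddx3y, Eif2s3y, Kdm5d and Uty, genes of the Y chromosome. CD11b is the protein of Itgam, so one of the genes described belongs to the selection the methods describe. A WT sample numbered 3 was not analysed here. The study gives mice as the replicates of its comparison of the genotypes, but the labels tie no library to a mouse, so p-values measure the spread between these libraries, which may be technical.

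Libraries held between 1013107 and 1351339 counts, and 3 counts, the signal that a count of 0 still allows, corresponded to at most 2.96 CPM (counts scaled to a common library size). KIKO replicate 2 stood apart. Over all genes in the test, which do not count as replicates, r of its log2 CPM with any other library was at most 0.747, and r between any pair of the others was at least 0.884. Results are therefore also given without it. The 12 microglia markers were detected in all libraries, with a summed level from 4686 to 14509 CPM, highest in KIKO replicate 2. The 8 monocyte and neutrophil markers summed to between 16.9 and 103 CPM, with Ly6c2, Plac8 and Ly6g at 0 counts. Markers of other brain cells were present as well, with summed levels from 7863 to 15561 CPM for choroid plexus epithelium (6 genes), 4449 to 18660 CPM for oligodendrocytes (5 genes), 1505 to 3084 CPM for neurons (7 genes) and 201 to 370.1 CPM for astrocytes (6 genes). The same sums were 174 to 341 CPM for border-associated macrophages (6 genes), 420.1 to 761 CPM for endothelium (5 genes), 68.3 to 144 CPM for fibroblasts (5 genes), 897 to 2683 CPM for red blood cells (3 genes) and at most 2.37 CPM for T cells (4 genes). In bulk samples, fewer cells of a type and less RNA per cell cannot be told apart.

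The C1q chains lie side by side on mouse chromosome 4 (GRCm38), all on the minus strand, within 18675 bases. C1qb spans positions 136880129 to 136886187, C1qc 136889804 to 136893065 and C1qa 136895917 to 136898803. Reference promoters were matched by symbol for 6 of the 9 genes (RefSeq, GRCm38.p6), and they were searched on both strands for GAGGAA, the core bound by PU.1, a transcription factor of myeloid cells, and for the composite Ets-IRF element, bound by PU.1 together with IRF factors. GAGGAA occurred in the promoters of C1qb, C1qc and Itgam, 3 of the 6, where 28.3% of all 32851 promoter windows hold it, and the composite element occurred in 0 of the 6, against 2.72% of all windows. These matches describe letters and were not tested as sites. The stretches upstream of every annotated start are shown for the 3 genes with a match, 5′ to 3′ on the strand of the gene, with GAGGAA or its reverse complement in capitals. They lie at chr4:136886201-136886450 (C1qb, minus strand), chr4:136893066-136893164 (C1qc, minus strand) and chr7:128062390-128062639 (Itgam, plus strand).
C1qb: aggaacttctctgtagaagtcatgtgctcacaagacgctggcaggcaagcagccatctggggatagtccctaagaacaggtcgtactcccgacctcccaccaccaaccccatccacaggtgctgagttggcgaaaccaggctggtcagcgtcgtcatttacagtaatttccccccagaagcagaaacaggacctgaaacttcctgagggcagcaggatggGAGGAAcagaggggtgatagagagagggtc
C1qc: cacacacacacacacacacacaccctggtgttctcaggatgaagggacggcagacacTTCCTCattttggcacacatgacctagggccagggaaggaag
Itgam: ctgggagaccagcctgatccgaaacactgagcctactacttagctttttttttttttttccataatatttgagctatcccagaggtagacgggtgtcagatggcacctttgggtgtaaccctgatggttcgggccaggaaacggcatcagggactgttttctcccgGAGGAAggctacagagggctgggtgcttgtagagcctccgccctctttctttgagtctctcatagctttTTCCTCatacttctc

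The first question was whether the C1q chains differ between genotypes. By mean CPM, a scale not corrected for length, C1qa, C1qb and C1qc ranked 62, 88 and 106 of 31053 genes. C1qa, the A chain, had 806 and 1125 normalized CPM in the WT libraries and 746, 1346 and 844 in the KIKO libraries. C1qb, the B chain, had 728 and 818 CPM in WT and 746, 833 and 927 in KIKO libraries. C1qc, the C chain, had 541 and 771 CPM in WT and 472, 1317 and 426 in KIKO libraries. The WT values of C1qa and C1qc lay inside the range of the KIKO values, and those of C1qb overlapped with it. KIKO replicate 2 was highest for C1qa and C1qc, and KIKO replicate 3 for C1qb.

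Of the 3 chains, 0 passed the thresholds of the comparison, where 1.2% of all genes tested did (0.716% higher and 0.487% lower in KIKO). A gene passed when its log2 fold change (KIKO minus WT) exceeded 0.75 in size and its p, before adjustment, was under 0.05 by edgeR's quasi-likelihood test. The mean of C1qa was 965 ± 226 CPM (SD, n = 2) for WT and 979 ± 322 CPM (SD, n = 3) for KIKO, and the log2 fold change was 0.02 (standard error 0.44, 95% interval −0.98 to 1.02). For C1qb, the means were 773 ± 63.3 (SD, n = 2) and 836 ± 90.7 (SD, n = 3), with a log2 fold change of 0.11 (standard error 0.37, −0.74 to 0.97). For C1qc, they were 656 ± 162 (SD, n = 2) and 738 ± 502 (SD, n = 3), with a log2 fold change of 0.17 (standard error 0.56, −1.12 to 1.46). The adjusted p (Benjamini-Hochberg over 10889 genes, edgeR) was 1 for each chain. The intervals include a change as large as 0.75 in at least one direction for each chain, so the data bound the difference rather than show that the genotypes are alike. Without KIKO replicate 2, C1qa and C1qc turned lower in KIKO, with log2 fold changes of −0.28 (adjusted p = 0.854, edgeR) and −0.55 (adjusted p = 0.587, edgeR), and C1qb had 0.11 (adjusted p = 0.946, edgeR).

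**Figure D1:**
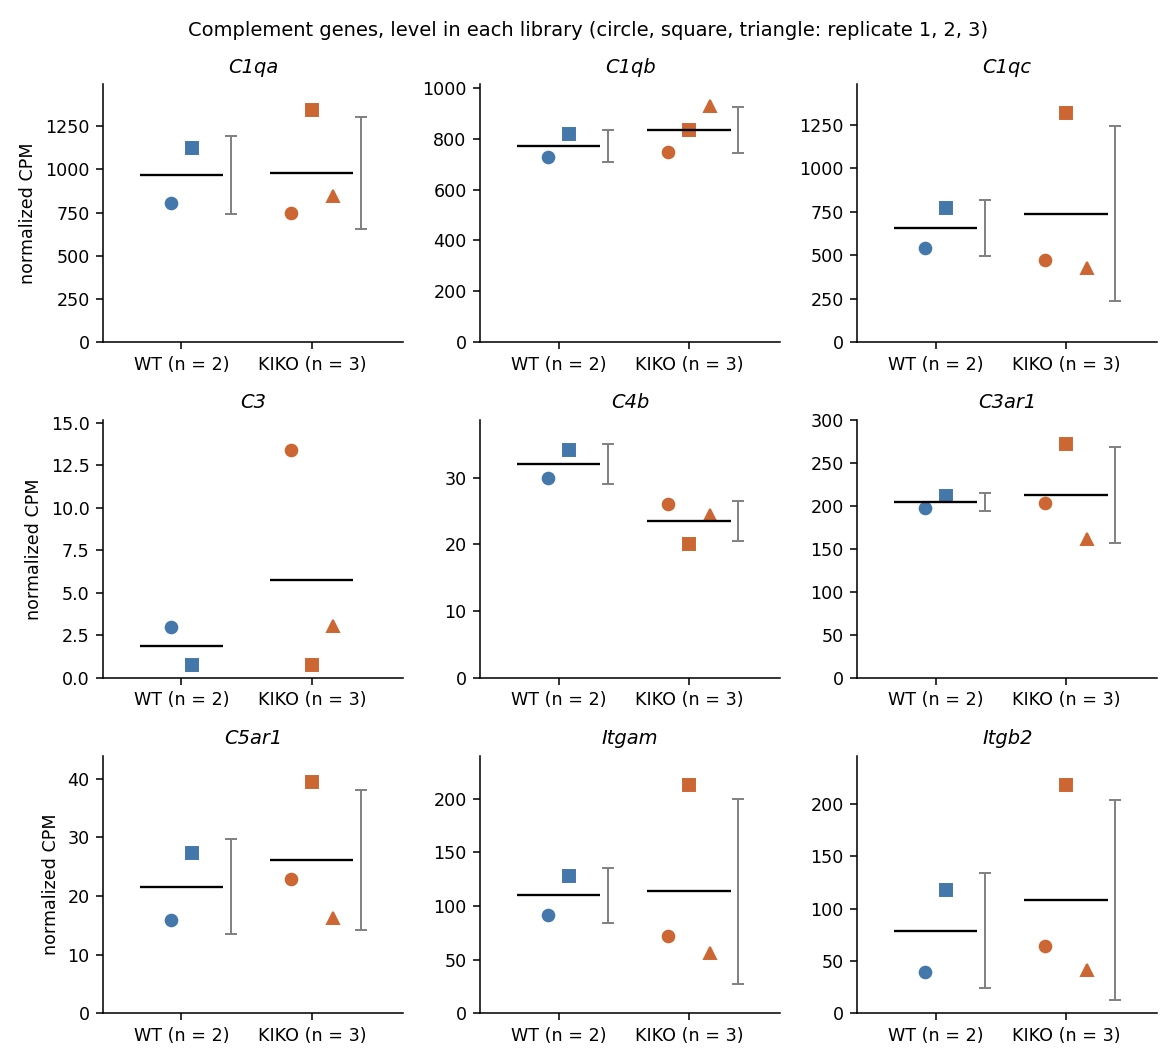
Normalized CPM of the 9 complement genes in each library, with an axis per gene starting at 0. Points are libraries, horizontal lines are group means and grey bars are the SD around the mean (not drawn for C3, which had 3 counts or fewer in 4 libraries). KIKO replicate 2 (square) is the highest point for 6 of the 9 genes, and C4b is the only gene whose WT and KIKO points do not overlap.

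The shares of C1qb and C1qc within the C1q counts differed between libraries, while that of C1qa stayed close to level. C1q counts made up 0.199% and 0.265% of the WT libraries and 0.194%, 0.364% and 0.214% of the KIKO libraries. C1qa held between 38.0% and 41.5% of the C1q counts. The share of C1qb was 35.1% and 30.1% in WT and 38.0%, 23.8% and 42.2% in KIKO libraries, and that of C1qc moved the other way, with 26.1% and 28.4% in WT and 24.0%, 37.7% and 19.4% in KIKO libraries. In KIKO replicate 2, the exact 95% binomial interval, which covers counting error only, of the C1qc share was 36.3% to 39.1%, apart from that of every other library. In KIKO replicate 3, it was 17.7% to 21.1%, also apart from the others. The ratio of C1qc to C1qb counts was 0.843 ± 0.141 (SD, n = 2) for WT and 0.891 ± 0.604 (SD, n = 3) for KIKO. With all libraries, the spread within KIKO was thus larger than the difference between genotypes, and KIKO replicate 2 had 1.58. Without it, the KIKO mean was 0.546, and the remaining KIKO ratios (0.632 and 0.460) lay below both WT ratios (0.743 and 0.942). This difference was not tested. No 75-base window of these transcripts is shared with another gene of GENCODE M21, and their exons overlap no other gene.

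**Figure D2:**
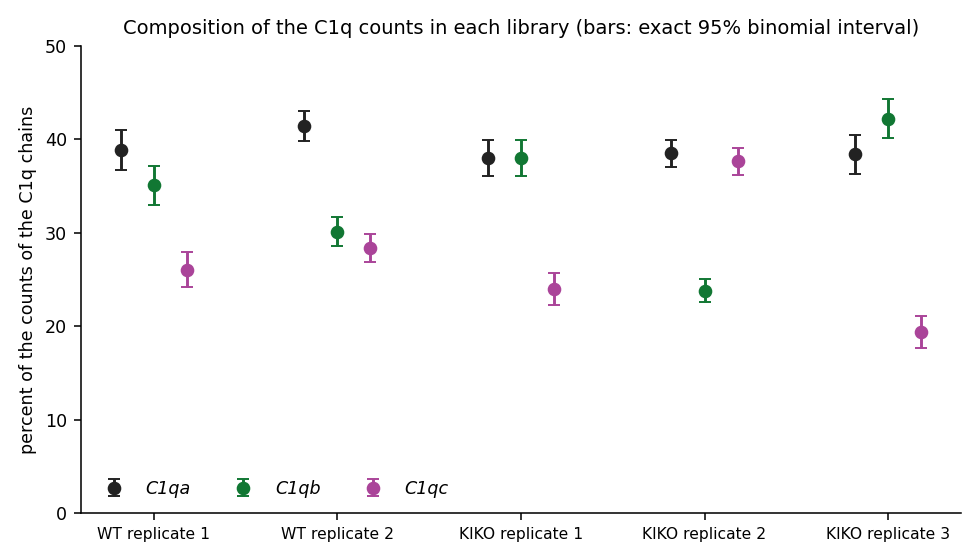
Percent of the summed C1qa, C1qb and C1qc counts held by each chain, per library, with exact 95% binomial intervals. C1qa stays between 38.0% and 41.5%, whereas the share of C1qc is highest (37.7%) and above that of C1qb in KIKO replicate 2, and is lowest (19.4%) in KIKO replicate 3.

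In normalized CPM, C4b was the one gene of the 9 with groups that did not overlap. C4b (chromosome 17, 34728380 to 34743882), a C4 gene of the mouse, had 29.9 and 34.1 CPM in WT and 26.0, 20.1 and 24.4 in KIKO libraries. All KIKO values lay below both WT values. Its mean was 32.0 ± 3.003 CPM (SD, n = 2) for WT and 23.5 ± 3.06 CPM (SD, n = 3) for KIKO, and the log2 fold change was −0.45 (standard error 0.46, 95% interval −1.51 to 0.62, adjusted p = 1 in edgeR's test). Of all genes tested, 8.51% had every KIKO value below both WT values and 8.2% had every KIKO value above them, so 1 such gene among the 8 tested is near the background. The value rests on 24 to 45 counts per library. Without KIKO replicate 2, the log2 fold change of C4b was −0.35 (adjusted p = 0.897, edgeR). Per 100 CPM of the microglia markers, C4b had 0.517 and 0.462 CPM in WT and 0.555, 0.138 and 0.467 CPM in KIKO libraries. On that scale, the groups overlapped. The summed astrocyte markers were 201 and 348 CPM in WT and 289 to 370.1 CPM in KIKO libraries, the fibroblast markers 72.7 and 68.3 CPM in WT and 76.1 to 144 CPM in KIKO libraries, and the part of these cells in the level of C4b was not tested. Of the 75-base windows of its transcript, 23.5% are shared with the paralog C4a, whose gene has no row in the table, so reads from these stretches could have been assigned to either gene or dropped.

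C3, the central component cleaved in all pathways, was close to the limit of detection. C3 (chromosome 17, 57203970 to 57228136) had 3 and 1 counts in WT and 17, 1 and 3 counts in KIKO libraries. The 17 counts in KIKO replicate 1 corresponded to 13.4 CPM, and the other libraries were at or under the floor of 3 counts. C3 was removed by the filter on low counts and not tested, and no fold is given. In the same library, the monocyte and neutrophil markers had their highest sum, 103 CPM, against 16.9 to 45.7 CPM in the others. The part of these cells in the C3 counts was not tested.

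The anaphylatoxin receptors were detected in all libraries and did not pass the thresholds. C3ar1 (chromosome 6, 122847138 to 122856161), the receptor of the C3a peptide, had 197 and 212 CPM in WT and 203, 272 and 161 in KIKO libraries. C5ar1 (chromosome 7, 16246743 to 16259540), the receptor of the C5a peptide, had 15.9 and 27.3 CPM in WT and 22.9, 39.4 and 16.2 in KIKO libraries. The groups overlapped for both receptors, and KIKO replicate 2 was the highest library for each. The log2 fold change was 0.06 for C3ar1 (standard error 0.38, 95% interval −0.80 to 0.91, adjusted p = 1, edgeR) and 0.27 for C5ar1 (standard error 0.58, −1.06 to 1.61, adjusted p = 1, edgeR). Means were 204 ± 10.2 (SD, n = 2) and 212 ± 55.9 CPM (SD, n = 3) for C3ar1, and 21.6 ± 8.04 (SD, n = 2) and 26.2 ± 11.9 CPM (SD, n = 3) for C5ar1. Without KIKO replicate 2, both turned lower in KIKO, with −0.16 (adjusted p = 0.925, edgeR) and −0.15 (adjusted p = 0.965, edgeR).

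Among the 8 genes tested, the chains of complement receptor 3 varied most between libraries. Itgam (chromosome 7, 128062640 to 128118491), the alpha chain, had 91.6 and 128 CPM in WT and 71.8, 213 and 55.8 in KIKO libraries. Itgb2 (chromosome 10, 77530252 to 77565708), the beta chain shared by the leukocyte integrins, had 39.8 and 118 CPM in WT and 64.7, 218 and 41.6 in KIKO libraries. In both genes, KIKO replicate 2 was highest. The other KIKO libraries lay below both WT libraries for Itgam and between them for Itgb2. The highest library exceeded the lowest 3.82-fold for Itgam and 5.47-fold for Itgb2, against 1.27-fold for C1qb. The log2 fold change was 0.05 for Itgam (standard error 0.59, 95% interval −1.30 to 1.39, adjusted p = 1, edgeR) and 0.45 for Itgb2 (standard error 0.74, −1.25 to 2.16, adjusted p = 1, edgeR). Without KIKO replicate 2, Itgb2 had −0.57 (adjusted p = 0.724, edgeR).

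Among the alternatives run, Itgam was the only one of the 9 genes to pass the thresholds, and only without KIKO replicate 2. Its log2 fold change was then −0.78 (standard error 0.31, adjusted p = 0.503, edgeR), lower in KIKO, and 6.36% of all genes passed in that fit, 3.44% in that direction. Its group means were 109.9 CPM for WT and 63.8 CPM for the remaining KIKO libraries. The summed microglia markers moved with it, at 5785 and 7390 CPM in WT and 4686, 14509 and 5210 CPM in KIKO libraries. Per 100 CPM of these markers, Itgam had 1.58 and 1.73 CPM in WT and 1.53, 1.47 and 1.07 CPM in KIKO libraries, with KIKO replicate 2 no longer apart. Every KIKO value of Itgam lay below both WT values on that scale. The share of all genes that did so on it was not computed. With libraries scaled by the microglia markers, Itgam had a log2 fold change of −0.29 (adjusted p = 1, edgeR), and −0.35 (adjusted p = 0.723, edgeR) when KIKO replicate 2 was left out as well, a fit in which the median over all genes was 0.39. Of the 75-base windows of the Itgam transcript, 71.7% are shared with Gm49368, a gene annotated on the same strand over its exons, whereas the last 1186 bases are not shared. Gm49368 had 3 and 0 counts in WT and 8, 24 and 1 in KIKO libraries, and how many reads the counting withheld from Itgam is not given in the sources used here.

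Over the 8 genes tested, 0 passed the thresholds, where 1.2% of the 10889 genes tested did, and 0 had an adjusted p under 0.05 (edgeR), as did 0% of all genes. At an unadjusted p under 0.05, 0 of the 8 and 131 of all genes passed, and with DESeq2's Wald test 0 of the 8 passed as well. Log2 fold changes were above 0 for 7 genes and below 0 for 1, with a median of 0.08, against 0.02 over all tested genes. Without KIKO replicate 2, the same counts were 1 above and 7 below, with a median of −0.31 and −0.01 over all genes, and without WT replicate 1 they were 2 above and 6 below, with a median of −0.09 and 0.05 over all genes. The direction of the set therefore depended on single libraries of both genotypes. Relative to the microglia markers, the summed C1q chains had 35.9 and 36.7 CPM per 100 marker CPM in WT, and 41.9, 24.1 and 42.2 in KIKO libraries.

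**Figure D3:**
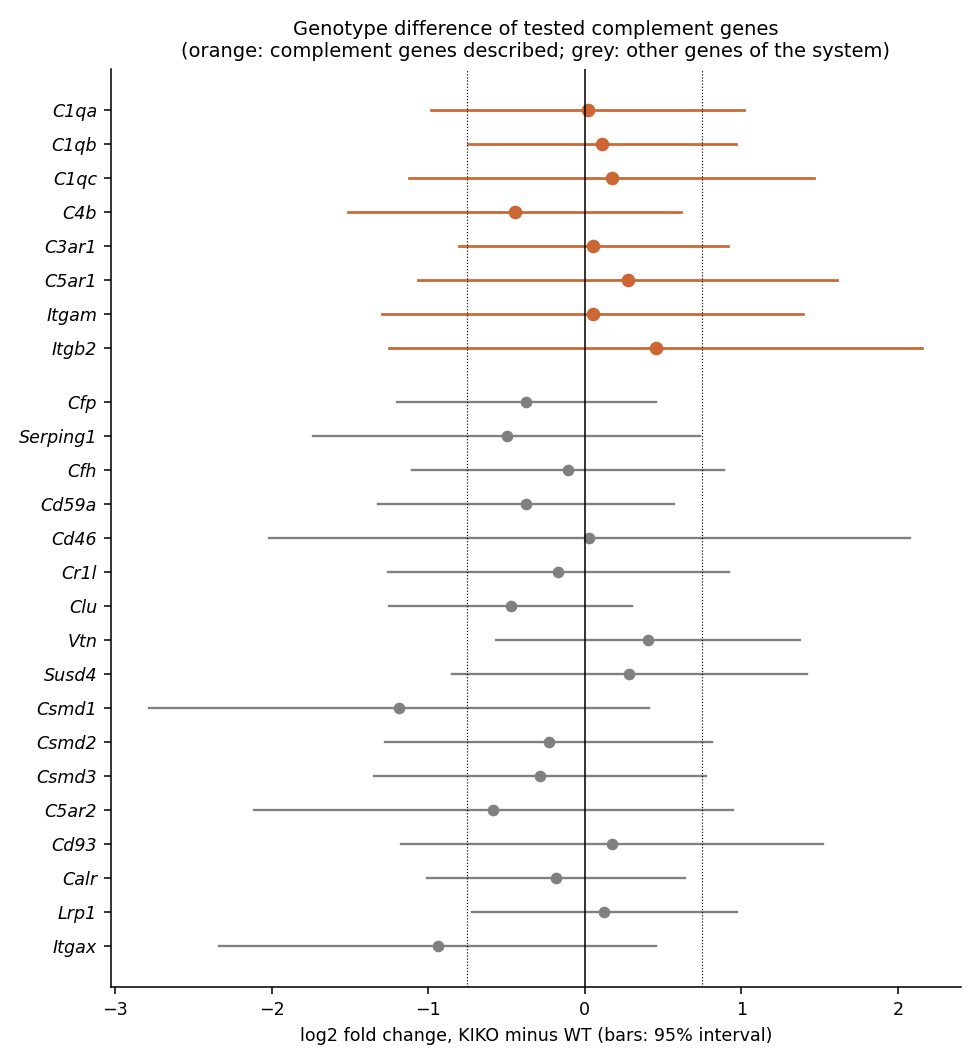
Log2 fold change (KIKO minus WT) with its 95% interval for the 8 tested complement genes described (orange), and for other tested complement genes and Itgax (grey). Dotted lines mark 0.75 in each direction, and each interval includes 0.

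Levels were compared between genes per kilobase of merged exons, averaged over the 5 libraries. On this scale, C1qa had 936 CPM per kb, C1qb 745 and C1qc 365, followed by C3ar1 with 48.6, Itgb2 with 31.6, Itgam with 22.3, C5ar1 with 9.48, C4b with 4.72 and C3 with 0.816. The lowest library of C1qc, at 221 CPM per kb, lay above the highest of C3ar1, at 63.2. Neighbours in this order from C1qa to C1qc, and from C3ar1 to C5ar1, overlapped in their ranges over libraries, whereas C5ar1, C4b and C3 did not overlap. Within libraries, C1qb exceeded C1qc and Itgam exceeded C5ar1 per kb in 5 of 5, and C1qa exceeded C1qb, C3ar1 exceeded Itgb2 and Itgb2 exceeded Itgam in 4 of 5, so the order of these last pairs was not the same in every library. The merged exons of C1qc hold 1931 bases, against 1203 in its longest transcript. For C1qa (1040) and C1qb (1088), these lengths are the same. A level per transcript length would thus be higher for C1qc. The means keep their order on that scale, since C1qc had fewer CPM than C1qb (705 against 810) and the longer transcript. In KIKO replicate 2, C1qc had more CPM than C1qb (1317 against 833). The order within libraries was read on merged exons only. The methods name a digital mRNA service and the labels a stranded kit, and a level per length depends on which of these was used.

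The rest of the complement system was read from a list of 47 genes, of which 46 had a row in the table and 16 passed the filter. Of the 16, 0 passed the thresholds in either direction, with 5 log2 fold changes above 0 and 11 below, and a median of −0.21. For activation, 0 of 14 classical and lectin genes were tested. C1s1 and C2, proteases of the classical pathway, had at most 43 and 12 counts, both in KIKO replicate 2. C1s1 had 0 to 6 counts in the other libraries. In the alternative pathway, Cfp (properdin), which stabilises the C3 convertase, had 90.6 and 78.9 CPM in WT and 76.5, 58.7 and 60.9 in KIKO libraries, a log2 fold change of −0.37 (adjusted p = 1, edgeR). All 7 terminal pathway genes had 3 counts or fewer in each library, which shows only that they were not detectable at this depth. Among the regulators, Clu (clusterin), an inhibitor of the terminal complex, had 249.03 and 265 CPM in WT and 207, 180 and 169 in KIKO libraries, a log2 fold change of −0.47 (adjusted p = 1, edgeR). Csmd1, a large membrane protein with complement control domains, had 58.8 and 61.4 CPM in WT and 34.7, 5.41 and 39.6 in KIKO libraries, a log2 fold change of −1.18 (adjusted p = 1, edgeR). Its WT mean was 60.1 CPM, and its KIKO mean was 26.6 CPM with KIKO replicate 2 and 37.1 CPM without it. Cfp, Clu and Csmd1 had KIKO values below both WT values, 3 of 16 against 8.51% of all genes, and C1s1, C2 and Csmd1 were chosen for mention after their values were seen.

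The other regulators and receptors named here overlapped between groups. Cd59a, which blocks the membrane attack complex, and Cr1l (Crry), which inactivates C3 convertases, had log2 fold changes of −0.37 and −0.17. Csmd2, a relative of Csmd1, had −0.23. Among receptors, Calr and Lrp1, which take part in clearance of C1q-tagged material, had −0.19 and 0.12, Cd93 had 0.18 and C5ar2, another receptor of C5a, had −0.58. The adjusted p was 1 for each of these 7 genes (edgeR). C5ar2 passed the thresholds without KIKO replicate 2, with −1.27 (adjusted p = 0.542, edgeR), 1 of the 16 genes in a fit where 6.36% of all genes passed. The value of C5ar2 rests on 9 to 46 counts per library.

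Itgax (CD11c), which pairs with Itgb2 as complement receptor 4, had every KIKO value below both WT values, as did 8.51% of all genes tested. It had 19.9 and 18.2 CPM in WT and 9.46, 10.05 and 10.1 in KIKO libraries. Without KIKO replicate 2, its KIKO mean was 9.81 CPM, against 19.1 CPM in WT. Its log2 fold change was −0.94 (standard error 0.61, 95% interval −2.33 to 0.45, adjusted p = 1, edgeR) and rests on 10 to 24 counts per library. The neuronal proteins with a C1q domain were read beside the immune chains: Cbln1 and Cbln3, cerebellins of granule neurons, had log2 fold changes of 0.10 and 0.25 (adjusted p = 1 for both, edgeR), and 3 of the 8 genes of this family had 3 counts or fewer in each library.

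The genes most like the mean of the C1q chains across the 5 libraries were Rpl7, Clcn4, Emc1, Polr2c and Trim35. Their log2 CPM, centred over libraries, differed from the centred mean of the chains by a root mean square of 0.0271 to 0.0805, where the median over the 1955 genes compared was 0.494. On the same measure, C1qa differed from the mean of the chains by 0.0410, C1qb by 0.299 and C1qc by 0.300, C3ar1 by 0.182, C5ar1 by 0.257, Itgam by 0.402, C4b by 0.470 and Itgb2 by 0.654. The 5 genes were picked for the smallest differences, so their distance from the median follows from the choice. Each chain is part of the mean it was compared with. These are descriptions over 5 libraries.

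**Figure D4:**
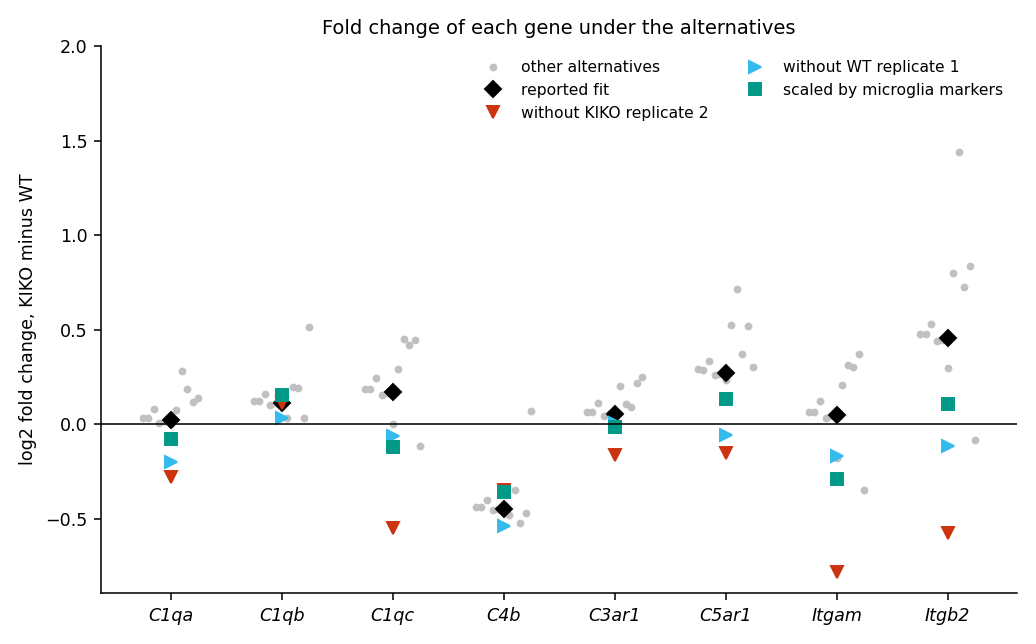
Log2 fold change (KIKO minus WT) of the 8 tested genes under each processing alternative. C1qb stays above 0 in all of them, C4b stays below 0 except with both microglia scaling and KIKO replicate 2 left out, and the other genes lie on both sides of 0.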

How the data were processed

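Bulk RNA sequencing of 2 WT and 3 KIKO cerebellum libraries was analysed. Per the study's methods, reads were trimmed (Trimmomatic), mapped to mm10 (HISAT2) and assigned to genes (featureCounts). The gene annotation, the strand setting and the treatment of multi-mapping reads are not given in the sources used here. What the authors deposited are raw counts (whole numbers) and, in another table, log2 values equal to log2(count / DESeq2 size factor + 1). That formula gave back the count to within 0.01 in 100% of cases, and the log2 values served one alternative. In both tables, 2 per-sample columns named for butyrate match no label, and they were left out.

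Identifiers were matched to symbols in GENCODE M21 (GRCm38, that is mm10) for 99.6% of 31053 rows. With edgeR 4.0.16 (R 4.3.3), 10889 genes passed filterByExpr (count of at least 10, total of at least 15), TMM factors ran from 0.971 to 1.06, and genotypes were compared by the two-sided quasi-likelihood test of glmQLFit, adjusted over all genes tested (Benjamini-Hochberg). Standard errors are the log2 fold change divided by the root of F. Genes were called by adjusted p under 0.05, or by a log2 fold change beyond 0.75 together with p under 0.05 before adjustment, as the study did. The fit was tested on simulated data. Normalized CPM divide counts by the scaled size of the filtered library. A count of 0 allows 3 counts, 2.22 to 2.96 CPM, and this floor and the exact Clopper-Pearson 95% intervals cover counting error only, since reads of amplified products are not independent molecules.

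The members and gene lists were chosen with earlier results of these data known. Genes named were the 9 members, and in each other role the genes past the thresholds and the 4 with the highest mean CPM. Added to them were the 5 genes with at least 100 mean CPM nearest to the mean of the C1q chains in log2(CPM + 0.5). Windows of 75 bases, the read length in the methods, were compared among GENCODE M21 transcripts. Alternatives were DESeq2 1.42.0, limma 3.58.1 with trend, RLE factors, library size alone, scaling by 12 microglia markers, 2 filters, the replicate number as a block and leaving out each library. Where 1 WT library was left, it was assumed to vary like the KIKO libraries. Genes kept by the main filter were used in the fits that left out a library. The level of the gene altered in KIKO mice is not reported here.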

Additional observations from a re-analysis of the deposited data

How the results depend on the processing

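The common biological coefficient of variation was 0.243 without KIKO replicate 2 and 0.468 with all libraries. With 2 against 3 libraries and a coefficient of 0.468, differences as small as those of the 9 genes could not be resolved. The direction of most turned without KIKO replicate 2 or without WT replicate 1. The number of genes past the fold and p thresholds was 131 (78 higher, 53 lower in KIKO) and 136 (96 higher, 40 lower) with DESeq2. It was 36 with libraries scaled by the microglia markers, 383 with all genes of at least 1 count, and 52 to 693 with each library left out. Scaling by the microglia markers without KIKO replicate 2, an alternative chosen after seeing the data, gave 1370 (1308 higher, 62 lower). The number with an adjusted p under 0.05 was 0, and it was 1 with all genes of at least 1 count, 0 to 8 with each library left out, and 23 with the added alternative. The number of the 9 genes past the thresholds ranged from 0 to 1 with each library left out (Itgam without KIKO replicate 2). Of the other complement genes, 1 passed with all genes of at least 1 count (Csmd1), and 0 to 1 with each library left out (C5ar2 without KIKO replicate 2). For all these changes, the cause was not tested.

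Directions that turned, as log2 fold changes, were as follows. Scaled by the microglia markers, C1qa had −0.079, C1qc −0.12, C3ar1 −0.016 and Itgam −0.29. With limma on the deposited log2 values, Itgam had −0.18. With each library left out, C1qa ranged from −0.28 to 0.28, C1qc from −0.55 to 0.45, C3ar1 from −0.16 to 0.22, C5ar1 from −0.15 to 0.72, Itgam from −0.78 to 0.37 and Itgb2 from −0.57 to 1.44. The lowest values were those without KIKO replicate 2, and all of these genes but C3ar1 also turned lower without WT replicate 1 (−0.20 for C1qa, −0.062 for C1qc, −0.056 for C5ar1, −0.17 for Itgam and −0.12 for Itgb2). With the added alternative, where the median of all genes was 0.39, C1qc had −0.12, C4b 0.071, Itgam −0.35 and Itgb2 −0.082. C1qb kept its direction in every alternative run.

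When replicate numbers were fitted as a block, the thresholds were passed by 271 genes (109 higher, 162 lower), by 0 of the 9 genes, and by 1 other complement gene (Csmd1, −1.97). Deviations of WT and KIKO libraries numbered 1 correlated with r of 0.18 across genes and those numbered 2 with r of 0.239. WT replicate 2 with KIKO replicate 1 had −0.18, and WT replicate 1 with KIKO replicate 2 had −0.239. WT replicate 1 and KIKO replicate 3 had 0.218. With 2 WT libraries, the WT deviations mirror each other, so any KIKO library has the same r with both, with opposite signs. These values therefore cannot tell whether libraries of the same number were paired.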
